A study of Mus musculus with 30 samples.

Results

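Hearts of HdhQ150 mice and of WT mice were compared at 22 months of age, the oldest age of the study, by RNA sequencing of whole hearts. The comparison took in 7 of the 30 heart libraries of the series, 4 from HdhQ150 and 3 from WT mice, chosen by the age and genotype in the headings of the count columns. In HdhQ150 mice the CAG repeat of the mouse's own huntingtin gene (Htt) is expanded by knock-in, so that mutant huntingtin is made wherever Htt is normally used, and the animals of the study were homozygous for it. WT mice carry the unexpanded gene, and the mice of both genotypes were labelled as strain (CBA x C57BL/6) F1. The study describes HdhQ150 mice of this age as having end-stage disease. Another pair of groups, 3 HdhQ150 and 4 WT hearts at 8 months of age, is set beside the 22-month hearts where it bears on them. The age label and the column headings give 22 months, whereas the sample titles write this age as 22wk.

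Huntingtin is a large scaffold protein that most tissues make, and its expansion causes Huntington's disease, known mainly as a disease of the brain. The study cites heart disease as a leading cause of death in patients. It also says that the clinical relevance of cardiac dysfunction for them is unknown. Cells that sense foreign nucleic acid or receive interferon switch on a common programme through factors such as STAT2 and IRF9, which raises antiviral proteins, antigen presentation and more of the sensors themselves. The heart draws most of its ATP from oxidative phosphorylation, whose complexes I, III, IV and V are built from subunits encoded in the nucleus and in the mitochondrial genome. Fatty acids are its main fuel, with glucose, lactate and ketone bodies beside them.

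The 7 libraries held between 39674011 and 45603891 counts. Levels are given as CPM, counts relative to library sizes scaled by TMM, and values of individual mice always stand in the order of mice 26, 27 and 28 (WT) and mice 29, 30, 31 and 32 (HdhQ150). Transcripts of the Y chromosome summed to 87.7 and 99.9 CPM in WT mice 26 and 27 and to at most 0.146 in the other 5 libraries, whereas Xist, the RNA of the inactive X chromosome, was at most 0.124 CPM in those 2 mice and at least 103 in the others. The sex in the headings therefore disagreed with these transcripts for mice 27, 28, 31 and 32, and all 4 HdhQ150 hearts but 1 of 3 WT hearts lacked Y-linked transcripts, so that genotype and sex cannot be fully told apart here. Mouse 31 stood apart by lymphocyte transcripts and, with mouse 32, by airway transcripts. List medians are therefore also given without mouse 31, and those of the lists the results turn on without both mice. The defining markers of heart muscle were abundant in every library, at 38802 to 73849 CPM for the sum of 10 of them. In RNA of a whole heart, fewer cells of a type and less RNA per cell cannot be told apart.

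The leading differences at 22 months ran in 2 directions. Genes of the interferon response and of antigen presentation were higher in HdhQ150 hearts, 59 of 60 and 21 of 22 tested members, with median log2 fold changes of 0.83 and 1.15. Without mouse 31 these medians were 0.57 and 0.63, and without mice 31 and 32 they were 0.51 and 0.35. Nuclear subunits of oxidative phosphorylation were lower, 78 of 78 tested members, with a median of -0.44. Their median was -0.33 without mouse 31 and without both mice. In edgeR's quasi-likelihood test 0 of 15569 tested genes (0%) were called, which required a fold of 1.3 or more and an adjusted p (Benjamini-Hochberg, over all genes) under 0.1, although 1269 genes were higher (8.15%) and 1322 lower (8.49%) at an unadjusted p under 0.05. DESeq2 called 271 of the same genes higher (1.74%) and 328 lower (2.11%). The count thus depended on the tool, and the word higher or lower below gives a direction of the mean and not a call. Without mouse 31 edgeR again called 0 of 15273 genes (0%), with 1226 higher (8.03%) and 1328 lower (8.7%) at the unadjusted threshold, and DESeq2 called 322 of them higher (2.11%) and 356 lower (2.33%). The adjusted p of edgeR over all 7 libraries was 0.291 or higher for each gene named. Below, values of WT against HdhQ150 hearts come first, log2 fold changes of single genes stand with their SE, and where no adjusted p follows it was 0.291.

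As background for the lists below, 56.1% of all tested genes had a log2 fold change above 0 and 43.9% below it, and their median was 0.05. In 8.81% of genes every HdhQ150 library lay above every WT library, and in 10.1% every one lay below. The scaling mattered for this median, which was 0.17 on log2(FPKM + 1) and 0.21 on log2(FPKM + 0.1), so that the lists are best read against it. With all 7 libraries, interferon genes lay 0.78 above the median of all genes on the TMM scale and 0.50 on log2(FPKM + 1). Antigen presentation lay 1.10 and 0.87 above, and oxidative phosphorylation 0.49 and 0.41 below.

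**Figure D1:**
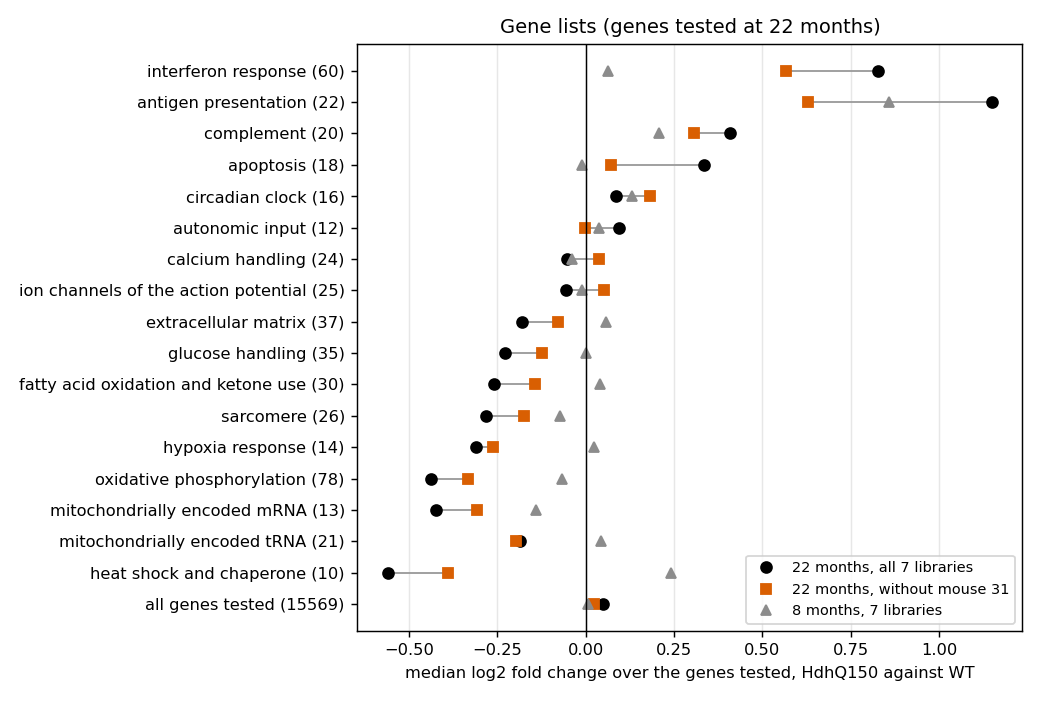
Median log2 fold change of HdhQ150 against WT over the tested genes of each list at 22 months with all 7 libraries (circles), at 22 months without mouse 31 (squares) and at 8 months (triangles); the number of genes tested is in brackets. Of the lists shown, which leave out the cell markers, antigen presentation (1.15) and the interferon response (0.83) lie farthest to the right at 22 months. Oxidative phosphorylation goes from -0.44 with all 7 libraries to -0.33 without mouse 31 and -0.07 at 8 months.

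In the interferon response, 31 of 60 tested genes had HdhQ150 levels that were all above the WT levels and none had the opposite, 38 were higher at the unadjusted threshold, and 22, all higher, were DESeq2 calls. The mean level over the list, as log2 CPM, was 2.87, 2.38 and 2.85 in the WT mice and 3.09, 3.37, 3.88 and 3.51 in the HdhQ150 mice, or 2.70 ± 0.27 (SD, n = 3) and 3.46 ± 0.33 (SD, n = 4). The lowest HdhQ150 heart therefore lay above the highest WT heart, by less than the SD of either group. Without mouse 31, 59 of 60 genes were still higher, the median was 0.57 and 33 genes did not overlap, where 11.6% of all genes did so upwards and 53.7% were higher, and without mice 31 and 32 the median was 0.51 with 57 of 60 higher. In the 5 libraries without Y-linked transcripts, which leave a single WT heart, it was 0.60 with 59 of 60 higher.

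Promoter sequences are shown for genes of this list because 46.2% of its windows held 1 particular motif. The motif is the core of the interferon-stimulated response element, spelled here as GAAA, any 2 bases and GAAA again, and searched on both strands with overlapping matches allowed, in RefSeq windows of 300 bases, 250 before to 50 after each gene's start. It was found in 24 of 52 windows of the interferon list, against 1131 of 32851 windows of all genes (3.44%) and 2 of 69 of the oxidative phosphorylation list (2.9%). A window was present for 43 of the 60 genes, and 23 of these genes had the motif in at least 1 window. The windows of an RNA sensor, of a signalling factor and of a GTPase are given 5′ to 3′ in the direction of the gene (build GRCm38.p6), with the motif, on whichever strand, in capitals. Their coordinates are chr2:62646206-62646505, minus strand for Ifih1, chr10:128270248-128270547, plus strand for Stat2 and chr11:48871371-48871670, minus strand for Irgm1, where 2 matches overlap.
Ifih1: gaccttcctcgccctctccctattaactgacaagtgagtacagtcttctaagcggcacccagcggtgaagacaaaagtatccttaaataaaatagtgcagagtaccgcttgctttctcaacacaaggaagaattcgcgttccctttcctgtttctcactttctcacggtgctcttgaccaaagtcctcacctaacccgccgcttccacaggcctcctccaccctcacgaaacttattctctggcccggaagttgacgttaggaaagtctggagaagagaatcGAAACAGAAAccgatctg
Stat2: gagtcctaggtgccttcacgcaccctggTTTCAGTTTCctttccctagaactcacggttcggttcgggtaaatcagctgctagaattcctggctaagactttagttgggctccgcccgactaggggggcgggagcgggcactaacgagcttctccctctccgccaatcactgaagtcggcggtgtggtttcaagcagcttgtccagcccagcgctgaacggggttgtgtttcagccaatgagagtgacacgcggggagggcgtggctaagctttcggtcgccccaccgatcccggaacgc
Irgm1: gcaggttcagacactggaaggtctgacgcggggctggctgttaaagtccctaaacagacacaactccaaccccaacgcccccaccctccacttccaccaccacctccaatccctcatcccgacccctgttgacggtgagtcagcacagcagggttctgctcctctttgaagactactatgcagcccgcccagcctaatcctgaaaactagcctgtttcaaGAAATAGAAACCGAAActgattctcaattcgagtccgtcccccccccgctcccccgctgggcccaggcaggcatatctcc

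Among the sensors of foreign nucleic acid, 8 of 9 tested genes were higher, with a median of 0.72 that was 0.29 without mouse 31, and 5 did not overlap. Ifih1, which encodes the RNA sensor MDA5, was at 6.01, 5.52 and 6.54 CPM in the WT and 8.14, 9.84, 8.84 and 9.77 CPM in the HdhQ150 hearts, with a log2 fold change of 0.60 ± 0.13. Its levels were close to each other within each genotype, and every HdhQ150 heart was above every WT heart. Zbp1, a sensor of Z-form nucleic acid, was at 1.64, 0.658 and 1.404 against 2.03, 2.03, 10.7 and 3.93 CPM, so that mouse 31 was the highest by far, and its log2 fold change of 1.92 ± 0.68 became 1.104 without that mouse. Tlr3, the endosomal sensor of double-stranded RNA, was the exception to the direction of the list, at 8.14, 8.02 and 9.33 against 7.53, 7.49, 9.19 and 8.88 CPM (-0.04 ± 0.14, adjusted p = 0.892). The groups overlapped for it throughout.

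All 10 tested genes of interferon signalling and transcription were higher, with a median of 0.91 (0.53 without mouse 31), and 8 did not overlap. Irf7, the factor that amplifies type I interferon production, was at 9.38, 5.997 and 6.99 CPM in WT and 13.6, 18.4, 17.6 and 16.7 CPM in HdhQ150 hearts (log2 fold change 1.15 ± 0.19). It belongs to the 12 genes of smallest p among those higher in HdhQ150 without overlap, and mouse 31 was not its highest library. Stat2, a factor that carries the interferon signal to the nucleus, was at 15.1, 11.5 and 15.4 against 17.1, 24.2, 22.9 and 22.4 CPM (0.63 ± 0.16). Irf9, its DNA-binding partner, was at 17.1, 11.02 and 17.9 against 20.7, 26.4, 29.5 and 28.2 CPM (0.77 ± 0.20). For all 3 genes mouse 29 was the HdhQ150 heart nearest to WT.

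Of the antiviral effectors, 27 of 27 tested genes were higher, with a median of 0.72 (0.52 without mouse 31) and 13 that did not overlap. Ifit2, which binds foreign RNA and restrains its translation, was at 7.03, 5.23 and 5.59 CPM in WT and 9.73, 12.6, 9.65 and 11.5 CPM in HdhQ150 hearts (0.87 ± 0.17). Lgals3bp, a secreted galectin-binding glycoprotein induced by interferon, was at 40.4, 30.99 and 39.00 against 59.02, 77.5, 78.3 and 64.6 CPM (0.92 ± 0.15). Both lay in the top 12 by p, which were chosen among genes without overlap. Oas3, an RNA-activated synthase of oligoadenylates, was low, at 0.323, 0.0526 and 0.185 against 0.419, 1.08, 7.93 and 0.754 CPM, and its fold change rested on mouse 31 (3.76 with it and 1.98 without it). Isg15, the ubiquitin-like modifier, was at 4.77, 2.55 and 3.15 against 4.52, 3.68, 4.04 and 6.26 CPM (0.40 ± 0.28, adjusted p = 0.44), and the groups overlapped. Ifitm3, a membrane protein that blocks viral entry and the member of highest FPKM, differed little, at 75.3, 51.7 and 58.6 against 74.7, 60.5, 75.4 and 76.8 CPM (0.21 ± 0.15, adjusted p = 0.449).

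The interferon-induced GTPases were higher at an unadjusted p under 0.05 in 11 of 11 tested genes, against 8.15% of all genes. Without mouse 31 it was 8 of 11, against 8.03%. Their median was 0.99 (0.83 without mouse 31, 0.58 in the libraries without Y-linked transcripts), and 4 did not overlap. Gvin1, a very large GTPase, was at 5.604, 4.21 and 6.17 CPM in WT and 9.34, 13.9, 26.1 and 13.98 CPM in HdhQ150 hearts (1.57 ± 0.35, 1.21 without mouse 31). Irgm1, which acts on membranes around intracellular microbes, was at 19.7, 17.1 and 19.7 against 20.97, 33.5, 29.5 and 34.3 CPM (0.65 ± 0.18). In both, mouse 29 had the lowest HdhQ150 level and for Irgm1 it was close to WT. The 3 tested negative regulators of the pathway were higher as well, with a median of 0.96 that was 0.44 without mouse 31, and 1 of them did not overlap.

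Antigen presentation was higher in 21 of 22 tested genes, with 11 non-overlapping upwards, 15 past the unadjusted threshold and 6 DESeq2 calls. The list depended on the libraries with immune transcripts more than the interferon list: its median was 1.15 with all 7, 0.63 without mouse 31 and 0.35 without mice 31 and 32. The 8 chains of class I, which present peptides from inside the cell, had a median of 0.91 (0.67 without mouse 31) and 7 did not overlap. B2m, the light chain that all class I molecules share, was at 294, 228 and 320.2 CPM in WT and 358, 539.8, 588 and 473 CPM in HdhQ150 hearts (0.80 ± 0.21). H2-K1 was at 203, 123 and 198 against 254, 365, 592 and 377 CPM (1.18 ± 0.31) and H2-D1 at 200.3, 145 and 193 against 235, 289.8, 431 and 301 CPM (0.81 ± 0.23). Both heavy chains were highest in mouse 31, and without it their log2 fold changes were 0.92 and 0.61.

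Of the 7 tested genes that load peptides on class I, 6 were higher (median 0.34, 0.23 without mouse 31). Nlrc5, the transactivator of class I genes, was at 3.83, 3.37 and 7.23 against 7.59, 14.4, 45.2 and 13.8 CPM (2.08 ± 0.63), with 1.303 when mouse 31 was left out. Tap1, a subunit of the peptide transporter, was at 13.6, 10.4 and 17.3 against 18.1, 27.4, 66.5 and 29.5 CPM (1.37 ± 0.44). Mouse 31 held the highest level of both. Psmb10, a catalytic subunit of the immunoproteasome, showed hardly any difference in its mean (-0.01 ± 0.15, adjusted p = 0.967), at 59.1, 57.9 and 39.8 against 47.4, 57.2, 51.6 and 51.2 CPM. The 7 genes of class II, which macrophages, dendritic cells and B cells use, were all higher (median 1.20, 0.65 without mouse 31 and 0.23 without mice 31 and 32), but none was without overlap. Cd74, their invariant chain, was at 146, 94.7 and 154 against 197, 113, 555 and 302 CPM (1.15 ± 0.50, adjusted p = 0.299), and H2-Aa at 44.3, 29.1 and 53.5 against 65.00, 36.4, 183 and 105 CPM (1.204 ± 0.51, adjusted p = 0.298). HdhQ150 mouse 30 lay within the WT range for both.

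**Figure D2:**
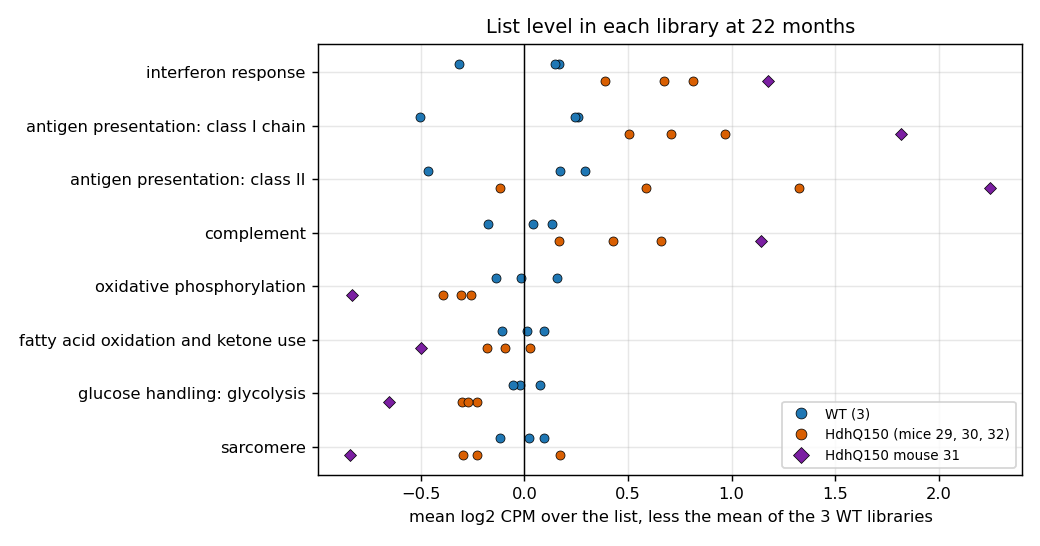
Mean log2 CPM over the tested genes of 8 lists or roles in each library at 22 months, less the mean of the 3 WT libraries; blue circles are WT, orange circles HdhQ150 mice 29, 30 and 32, and the purple diamond is HdhQ150 mouse 31. Every HdhQ150 heart lies above every WT heart for the interferon response and the class I chains and below them for oxidative phosphorylation and glycolysis, and the purple diamond is the most distant point in all 4.

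Complement components followed the same direction, 11 of 11 tested genes higher with a median of 0.48 (0.41 without mouse 31) and 5 that did not overlap, and of the regulators and receptors 7 of 9 were higher (0.29, and 0.26 without mouse 31). Over the whole list of 20, 18 were higher, 7 did not overlap upwards and 2 downwards, and the median was 0.41, or 0.31 without mouse 31 and 0.17 without mice 31 and 32. C2, a protease of the classical pathway, was at 7.38, 7.29 and 9.03 CPM in WT and 15.2, 11.8, 18.5 and 14.8 CPM in HdhQ150 hearts (0.93 ± 0.17). C4b was at 35.03, 40.1 and 49.99 against 64.1, 90.02, 153 and 76.1 CPM (1.199 ± 0.30). C3, the central component, was at 205, 209.6 and 275 against 388, 348, 934 and 422 CPM (1.19 ± 0.37) and at 0.74 without mouse 31. These 3 did not overlap. Cfd (adipsin), which fat cells secrete and which starts the alternative pathway, was at 21.9, 21.8 and 26.2 against 97.3, 36.5, 269 and 169 CPM (2.62 ± 0.61). Itgam, a chain of complement receptor 3 on myeloid cells, was at 5.44, 3.42 and 5.51 against 7.66, 7.699, 15.1 and 9.55 CPM (1.06 ± 0.30).

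The markers of other cell types moved with these lists and were measured beside them. The summed level of 16 T and NK cell markers was 9.24 to 10.6 CPM in the WT hearts, 9.55 to 22.7 in HdhQ150 mice 29, 30 and 32 and 735 in mouse 31. For 14 markers of B and plasma cells the sums were 51.3 to 82.5 CPM, 33.8 to 188 and 1076, and for 7 genes of lymphoid tissue stroma 4.39 to 5.54, 8.34 to 21.1 and 129. Airway and alveolar genes (17) summed to 0.927 to 33.5 CPM in WT hearts, 2.21 and 3.19 in mice 29 and 30, and 818 and 517 in mice 31 and 32. The airway sum was thus high in both of these hearts and the lymphocyte sums mainly in mouse 31. None of the defining markers of these lists was at 0 in all libraries. The part of these cells in the lists above was not tested. In mice 29 and 30 alone the interferon list had a median of 0.51 against WT. Their T and NK cell sums were 17.6 CPM, above the WT range, and 9.55 CPM, within it. Their B and plasma cell sums were 114 CPM, above the WT range, and 33.8 CPM, below it. Both hearts were above the WT range for lymphoid tissue stroma (12.7 and 8.34 CPM) and for macrophage markers (145 and 158 CPM).

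Single markers showed the same split. Cd8a, a coreceptor of killer T cells, was at 0.242, 0.395 and 0.265 CPM in WT and 0.927, 0.335, 105 and 1.19 CPM in HdhQ150 hearts, and Ccl5, a chemokine of T and NK cells, at 1.64, 1.63 and 1.22 against 2.69, 1.96, 177 and 3.38. Cd79a, a part of the B cell receptor, was at 2.88, 2.18 and 2.38 against 9.27, 1.91, 69.1 and 8.72 CPM. Among immunoglobulin constant regions, Ighm was at 31.9, 19.1 and 20.4 against 42.3, 15.8, 409 and 49.1 CPM and Igkc at 25.5, 15.5 and 11.2 against 24.4, 8.16, 251 and 72.3 CPM. Mouse 30 was below the WT range for all 3, and mice 29 and 32 were above the WT range for Cd79a and Ighm. Igkv8-27, a segment of the kappa light chain, was at 0.108, 0.0263 and 0.0265 CPM in WT and 4.66, 1.21, 28.7 and 12.1 CPM in HdhQ150 hearts without overlap, and was the only segment of 15 tested to do so. Its WT libraries held few reads, so that no fold is given. Cxcl13, the chemokine that gathers B cells, was at 3.31, 2.24 and 3.36 against 8.34, 6.93, 61.9 and 10.3 CPM and Glycam1, of lymphoid vessels, at 0.0269, 0 and 0 against 0.309, 0, 9.49 and 3.45 CPM. Of the airway genes, Scgb1a1 was at 21.3, 0.263 and 0 against 0.0441, 0.386, 380.2 and 202 CPM and Bpifa1 at 4.58, 0.105 and 0 against 0.0221, 0, 266 and 199.6 CPM. WT mouse 26 carried some of both as well.

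Macrophage markers were higher in 14 of 15 tested genes (median 0.39, 0.26 without mouse 31), and their sum was 122 to 139 CPM in WT and 145, 158, 263 and 168 CPM in HdhQ150 hearts, which did not overlap. Csf1r, the receptor for the growth factor of macrophages, was at 41.4, 42.3 and 40.8 against 44.3, 45.7, 51.7 and 45.4 CPM (0.17 ± 0.09, adjusted p = 0.335), and Lyve1, a marker of resident macrophages and of lymphatic vessels, at 9.08, 10.3 and 16.96 against 15.3, 17.4, 22.8 and 17.4 CPM (0.59 ± 0.24, 0.46 without mouse 31). Ccr2, the receptor that brings in blood monocytes, was at 3.56, 1.95 and 2.702 against 3.97, 3.605, 34.1 and 5.18 CPM, and outside mouse 31 its log2 fold change was 0.63. Marco, a scavenger receptor typical of alveolar and other tissue macrophages, was at 0.431, 0.0526 and 0.371 against 2.65, 1.98, 11.03 and 3.59 CPM, again highest in mouse 31 but above every WT heart in all 4. Genes of blood and marrow were higher in 7 of 8 (median 1.32, 0.97 without mouse 31), with Hba-a1 of haemoglobin at 1128, 1539 and 2773 against 2235, 6384, 4735 and 1358 CPM, the granulocyte gene S100a9 at 1.45, 1.16 and 1.696 against 1.41, 5.82, 54.5 and 1.78 CPM and Ltf, which airway glands make too, at 0.350, 0.105 and 0.0530 against 0.110, 0.309, 29.7 and 34.1 CPM. These 3 overlapped between genotypes.

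**Figure D3:**
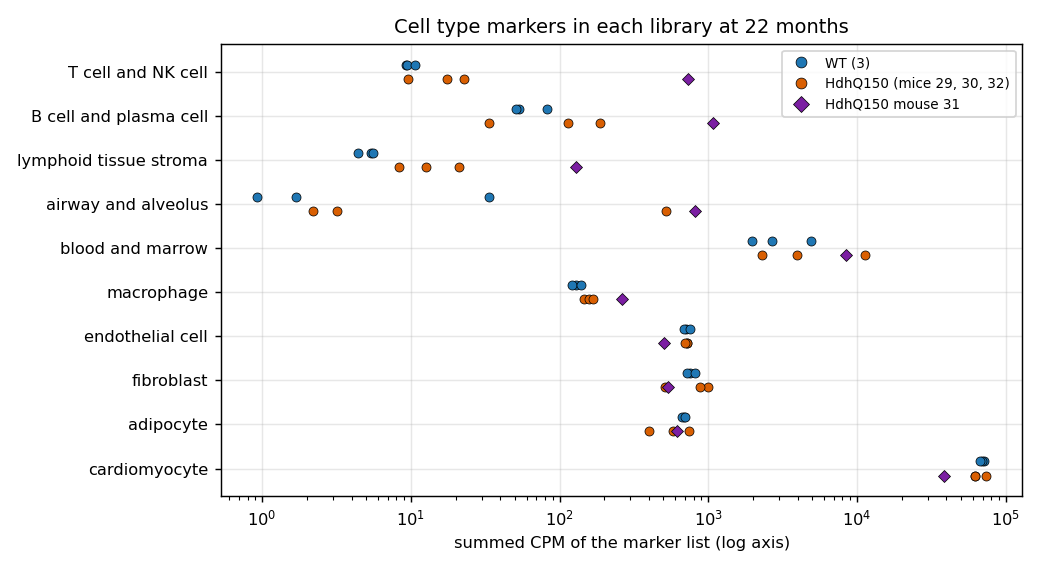
Summed CPM of cell type marker lists in each library at 22 months on a log axis; blue circles are WT, orange circles HdhQ150 mice 29, 30 and 32, and the purple diamond is HdhQ150 mouse 31. Mouse 31 stands at 735 CPM for T and NK cell markers, where the other 6 hearts lie between 9.24 and 22.7 CPM, and has the lowest cardiomyocyte sum of 38802 CPM.

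The resident cells of the heart gave smaller median differences, and several of their directions rested on mouse 31. Cardiomyocyte markers were higher in 4 of 10 tested cases (median -0.19, and -0.06 with 5 of 10 higher without mouse 31), and 4 of the 10 did not overlap downwards. Endothelial markers were higher in 1 of 8 (-0.14, and -0.01 with 2 of 8 without mouse 31). Markers of fibroblasts were higher in 2 of 8 (-0.15) and those of smooth muscle and pericytes in 2 of 8 (-0.08), but without mouse 31 each was higher in 5 of 8 (0.05 and 0.09). Nerve and glia markers were higher in 4 of 7 (0.19, 0.02 without mouse 31), atrial myocyte markers in 4 of 7 (0.02, and -0.05 with 3 of 7 without mouse 31) and adipocyte markers in 4 of 8 with all libraries and without mouse 31 (0.11 and 0.00), against 3 of 8 (-0.25) in the libraries without Y-linked transcripts. Apart from the resident cells, 2 of 7 thymocyte markers could be tested. Both were higher (0.50, 0.51 without mouse 31), but only 1 was without mice 31 and 32 (0.23). Vwf, the clotting factor of endothelium, was the endothelial gene that was higher, at 47.04, 40.4 and 60.6 against 64.9, 111, 70.4 and 66.8 CPM (0.66 ± 0.23), with mouse 30 highest. The muscle sum of mouse 31 was 38802 CPM against 61815 to 73849 in the other 6 hearts, and lists of muscle genes below are given without that mouse too.

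Oxidative phosphorylation was lower in all 78 tested nuclear subunits, with a median of -0.44, and in 67 of them the groups did not overlap. The unadjusted threshold was passed by 54, and 19 were DESeq2 calls. The mean level over the list, in log2 CPM, was 8.95, 8.77 and 8.65 in the WT mice and 8.53, 8.40, 7.96 and 8.49 in the HdhQ150 mice (8.79 ± 0.15, SD, n = 3, and 8.34 ± 0.26, SD, n = 4). Mouse 31 was the lowest, and the other 3 HdhQ150 hearts also lay below all WT hearts. The nearest hearts, WT mouse 28 and HdhQ150 mouse 29, were apart by less than the SD of either group. Without mouse 31 the median was -0.33, with 77 of 78 lower and 67 not overlapping, against 46.3% and 11.7% of all genes, and in the libraries without Y-linked transcripts it was -0.30. Without mice 31 and 32 the median was -0.33, with 1 of 78 higher. On log2(FPKM + 1), 2 of 78 were higher. The subunits are short genes, with a median exon length of 1696.5 bases, and in these libraries the median log2 fold change over all genes, cut into 10 bins of exon length, went from -0.15 in the shortest bin to 0.16 in the longest. Measured against genes of the same bin, the list's median was -0.35, and -0.23 without mouse 31.

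All 5 complexes had medians below 0. Complex I, which takes electrons from NADH, had a median of -0.46 over 37 tested subunits, of which 35 did not overlap. Complex II, succinate dehydrogenase, had -0.26 over 4 (3 not overlapping, and -0.14 without mouse 31) and complex III -0.43 over 9 (9 not overlapping). Complex IV, cytochrome c oxidase, had -0.42 over 13 (8 not overlapping) and complex V, ATP synthase, -0.43 over 15 (12 not overlapping). Without mouse 31 the medians of complexes I, III, IV and V were -0.37, -0.32, -0.33 and -0.31. Ndufs5 of complex I had the smallest p of the list, at 230.4, 199 and 179.6 CPM in WT and 152, 129, 101 and 143 CPM in HdhQ150 hearts (-0.63 ± 0.16). Ndufc1 was at 198, 174 and 154 against 129, 122, 88.03 and 127 CPM (-0.60 ± 0.16), Ndufs8 at 204, 181 and 165 against 137, 125, 93.1 and 138 CPM (-0.58 ± 0.16), and Ndufa3 at 283, 232 and 207 against 181, 154, 121 and 171 CPM (-0.62 ± 0.17). These 4 subunits all belong to complex I, and in each mouse 26 was highest and mouse 31 lowest. Atp5b, the catalytic beta subunit of ATP synthase and the member of highest FPKM, was at 5399, 5286 and 5416 against 5312, 5370.1, 3412 and 4843 CPM (-0.18 ± 0.21, adjusted p = 0.634), with mouse 31 lowest, mouse 32 next and the other 5 hearts close together.

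Windows of 3 subunit genes are shown because another motif was frequent among them. It is the core bound by nuclear respiratory factor 1, spelled here as GCGCA, any base and GCGC, and searched in the same way. The letters were found in 18 of 69 windows of the oxidative phosphorylation list (26.1%), against 4.6% of all 32851 windows and 0 of 52 of the interferon list. A window was present for 64 of the 78 genes, and 17 had it. The coordinates (GRCm38.p6) are chr4:123718137-123718436, minus strand for Ndufs5, chr6:24527477-24527776, minus strand for Ndufa5, which has 2 windows, and chr5:108434350-108434649, minus strand for Atp5k, and the motif is in capitals.
Ndufs5: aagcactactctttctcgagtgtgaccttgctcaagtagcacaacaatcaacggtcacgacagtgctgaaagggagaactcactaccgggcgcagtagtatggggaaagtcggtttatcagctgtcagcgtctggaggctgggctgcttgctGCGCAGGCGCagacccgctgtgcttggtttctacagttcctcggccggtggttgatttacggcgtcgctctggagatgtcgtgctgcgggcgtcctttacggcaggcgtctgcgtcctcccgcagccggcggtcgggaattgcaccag
Ndufa5: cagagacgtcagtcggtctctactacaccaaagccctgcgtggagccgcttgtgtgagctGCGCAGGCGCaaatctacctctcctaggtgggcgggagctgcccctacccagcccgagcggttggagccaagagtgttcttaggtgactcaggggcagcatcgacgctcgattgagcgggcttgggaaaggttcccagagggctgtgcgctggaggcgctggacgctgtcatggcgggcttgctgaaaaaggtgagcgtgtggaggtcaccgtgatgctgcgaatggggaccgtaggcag
Atp5k: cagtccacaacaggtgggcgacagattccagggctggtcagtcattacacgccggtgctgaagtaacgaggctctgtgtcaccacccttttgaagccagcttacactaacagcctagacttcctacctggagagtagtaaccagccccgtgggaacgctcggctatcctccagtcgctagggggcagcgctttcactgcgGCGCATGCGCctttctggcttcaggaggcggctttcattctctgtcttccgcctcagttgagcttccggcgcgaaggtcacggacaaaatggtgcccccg
The levels of Ndufa5 were 346, 287 and 257 CPM in WT and 238, 201, 161 and 223 CPM in HdhQ150 hearts (-0.53 ± 0.17), and those of Atp5k, a small subunit of ATP synthase, 427, 368 and 330.0 against 291, 244, 189 and 289.6 CPM (-0.57 ± 0.18). Neither gene overlapped between genotypes. A match to these letters describes the sequence only and is not evidence that a factor was bound.

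**Figure D4:**
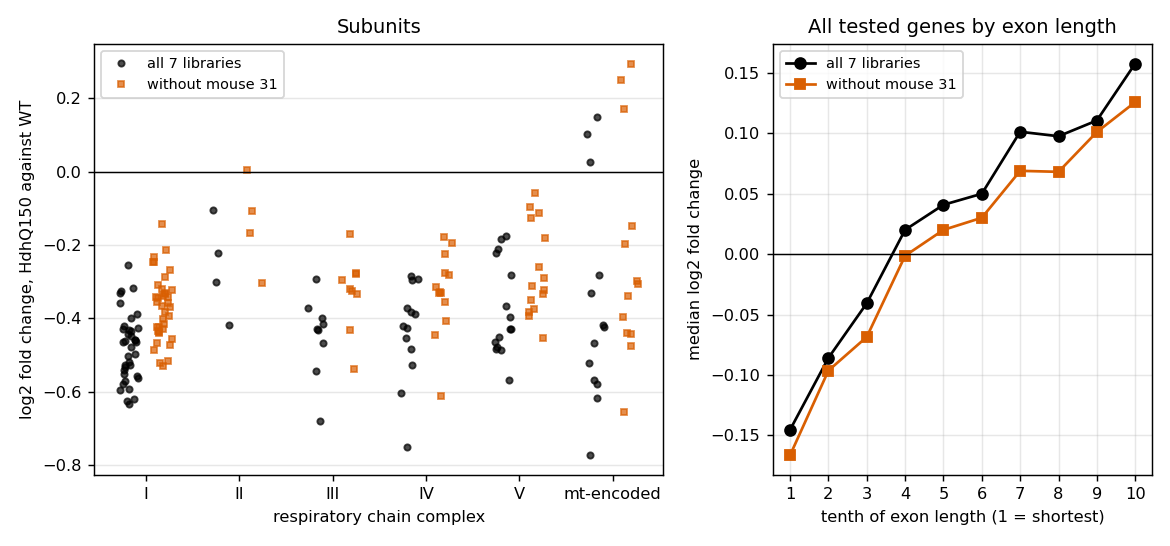
Left, log2 fold change of HdhQ150 against WT for each tested subunit of complexes I to V and each mRNA of the mitochondrial genome, with all 7 libraries (black circles) and without mouse 31 (orange squares). Right, the median log2 fold change over all genes in 10 bins of exon length, which runs from -0.15 in the shortest bin to 0.16 in the longest with all 7 libraries.

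The 13 mRNAs of the mitochondrial genome had a median of -0.42 (-0.31 without mouse 31), with 10 lower and 8 not overlapping downwards, and 1 lower at an unadjusted p under 0.05. mt-Nd3, a subunit of complex I, was at 5975, 4101 and 3684 CPM in WT and 3205, 2640.4, 1992 and 2922 CPM in HdhQ150 hearts (-0.77 ± 0.24). mt-Co1 of complex IV, the member of highest FPKM, was at 119492, 106071 and 113681 against 102307, 108564, 65259 and 96469.5 CPM (-0.28 ± 0.31, adjusted p = 0.617), with mouse 30 inside the WT range. Mitochondrial tRNAs had a median of -0.18 over 21 (-0.20 over 19 without mouse 31). Measured against the shortest bin of exon length, the median was -0.04. That bin runs from 57 to 1522 bases, whereas the median tRNA has 69, so genes of tRNA length were not compared. 2 of the tRNAs were among the 12 genes of smallest p that were lower without overlap. mt-Ti was at 33.7, 29.4 and 25.9 against 15.7, 9.296, 11.5 and 13.7 CPM (-1.24 ± 0.18), and mt-Tq at 46.1, 40.7 and 37.2 against 24.5, 17.6, 15.5 and 23.5 CPM (-1.03 ± 0.17). Without mouse 31 the values were -1.204 and -0.92. These genes are neighbours on opposite strands of the mitochondrial genome, and whether reads were counted by strand is not given in the sources used here. mt-Ts1 was at 1479, 1077 and 943 against 831, 697, 509 and 781 CPM (-0.73 ± 0.22).

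Genes of fatty acid oxidation and ketone use were lower in 23 of 30 tested cases, with a median of -0.26 (-0.14 without mouse 31), 12 not overlapping downwards and 1 upwards. The enzymes of beta-oxidation itself were lower in 13 of 13, with a median of -0.30 (-0.18 without mouse 31). Cpt2, which completes the import of acyl groups into mitochondria, was at 241, 253 and 245 CPM in WT and 199, 133, 112 and 180.5 CPM in HdhQ150 hearts (-0.66 ± 0.20). Acads, the dehydrogenase of short acyl chains, was at 257, 254 and 233 against 206, 159, 121 and 190.2 CPM (-0.56 ± 0.18). Fabp3, the fatty acid carrier of heart muscle, was at 3295, 2956 and 2737 against 2480.4, 1565, 1273 and 2036 CPM (-0.71 ± 0.24). Bdh1, which oxidises the ketone body beta-hydroxybutyrate, had the smallest p here, at 205, 193 and 178 against 116, 126, 80.5 and 134 CPM (-0.75 ± 0.17). In these 4 genes all HdhQ150 hearts lay below all WT hearts. Of the transcription factors and coactivators of the pathway, 4 of 5 were higher with all 7 libraries (median 0.38) and without mouse 31 (0.47), and 2 of 5 in the libraries without Y-linked transcripts (-0.18), and each overlapped between genotypes.

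Genes of glucose handling were lower in 29 of 35 tested cases (median -0.23, -0.12 without mouse 31), with 17 not overlapping downwards and 1 upwards, and on log2(FPKM + 1) 15 of 35 were higher. Within it, 13 of 14 genes of glycolysis were lower (-0.35, -0.24 without mouse 31), and 10 did not overlap. Pgam1, phosphoglycerate mutase, was at 102, 132 and 104 against 75.2, 63.9, 81.6 and 92.2 CPM (-0.53 ± 0.15), and Gapdh, of highest FPKM in the list, at 4108, 3526 and 3616 against 3358, 3376, 2235 and 2825 CPM (-0.35 ± 0.20, adjusted p = 0.37). Ppp1r3c, which targets a phosphatase to glycogen, was at 117, 100.3 and 125 against 64.8, 70.2, 37.6 and 74.1 CPM (-0.89 ± 0.22).

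Slc16a7, a monocarboxylate transporter (MCT2), was the gene of this list that was higher without overlap, at 3.66, 2.84 and 5.01 CPM in WT and 9.01, 8.65, 6.27 and 9.43 CPM in HdhQ150 hearts (1.12 ± 0.24). The remaining genes of smallest p that were higher belong to other pathways. Isyna1, which makes inositol phosphate from glucose 6-phosphate, was at 22.3, 21.99 and 24.3 against 33.3, 34.2, 39.9 and 34.8 CPM (0.63 ± 0.10), with hardly any spread in WT. H6pd, which makes NADPH in the endoplasmic reticulum, was at 29.2, 28.9 and 31.4 against 41.5, 46.1, 49.4 and 38.2 CPM (0.55 ± 0.11). Lss, lanosterol synthase of the cholesterol pathway, was at 3.13, 3.39 and 3.55 against 4.900, 7.24, 6.34 and 6.07 CPM (0.87 ± 0.18). Igfbp3, a carrier of insulin-like growth factors, was at 27.1, 24.8 and 31.98 against 62.6, 36.6, 52.4 and 51.6 CPM (0.86 ± 0.18), and Fer1l6, of the ferlin family of membrane proteins, at 1.27, 0.710 and 0.927 against 2.05, 2.78, 2.22 and 2.95 CPM (1.36 ± 0.27). Mouse 31 was not the highest heart for Igfbp3 or Fer1l6, and without it the 6 log2 fold changes lay between 0.48 and 1.41.

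Among those that were lower, Cdc34, a ubiquitin-conjugating enzyme, was at 109, 104 and 89.99 CPM in WT and 70.9, 55.4, 47.3 and 62.5 CPM in HdhQ150 hearts (-0.78 ± 0.15), and Neurl1a, a ubiquitin ligase, at 4.61, 3.95 and 3.52 against 2.01, 2.01, 1.93 and 2.12 CPM (-0.998 ± 0.17). Without mouse 31 the values were -0.69 and -0.98. Trp53i11 was at 46.9, 65.7 and 49.5 against 36.2, 27.2, 27.4 and 31.9 CPM (-0.82 ± 0.15) and Tmem150c, a membrane protein, at 10.4, 7.26 and 8.29 against 4.79, 3.37, 2.52 and 3.47 CPM (-1.29 ± 0.24). Vgll2, a cofactor of TEAD factors known from skeletal muscle, was at 1.89, 2.16 and 1.09 against 0.640, 0.592, 0.385 and 0.571 CPM (-1.65 ± 0.31), and Kcnk1, a background potassium channel, at 4.07, 6.84 and 2.17 against 1.02, 0.798, 1.21 and 0.731 CPM (-2.21 ± 0.39). For Vgll2 and Kcnk1, WT mouse 28, the WT heart without Y-linked transcripts, was the WT heart nearest to HdhQ150, and the value against it alone was -0.998 and -1.22.

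**Figure D5:**
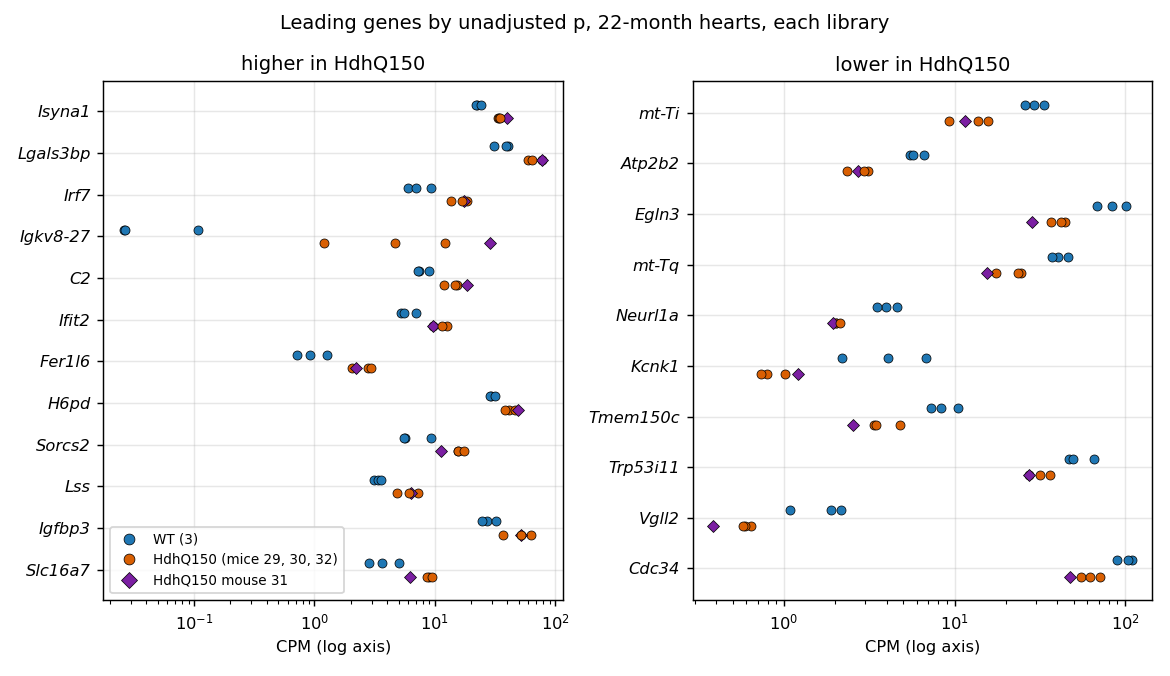
CPM in each library on a log axis for 12 genes higher (left) and 10 lower (right) in HdhQ150 among those with the smallest unadjusted p; blue circles are WT, orange circles HdhQ150 mice 29, 30 and 32, and the purple diamond is HdhQ150 mouse 31. By the rule that chose these genes no HdhQ150 point overlaps the WT points, and Irf7 shows 13.6 to 18.4 CPM in HdhQ150 against 5.997 to 9.38 CPM in WT hearts.

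Contractile genes were lower by small amounts. Of 26 tested sarcomere genes 22 were lower, with a median of -0.28, but the median was -0.17 without mouse 31 and -0.04 without mice 31 and 32, and 6 did not overlap downwards against 1 upwards. Myl3, the ventricular essential light chain, was at 5954, 5137 and 4849 CPM in WT and 4178, 3838, 2278 and 3845 CPM in HdhQ150 hearts (-0.59 ± 0.24). Myom2, an M-band protein, was the gene that was higher, at 1029, 798 and 1043 against 1354, 2097, 1097 and 1250.1 CPM (0.60 ± 0.25, adjusted p = 0.294). Genes of skeletal muscle had a median of -0.52 over 9 tested, with 7 lower, which was -0.36 with 8 lower without mouse 31, and -0.28 in the libraries without Y-linked transcripts.

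The foetal and hypertrophy programme, which failing hearts often reactivate, showed no common direction, with 7 of 17 tested genes higher (median -0.26, and -0.08 with 8 of 17 higher without mouse 31) and 1 non-overlapping gene each way. Acta1, skeletal alpha-actin, was at 326, 609.9 and 117 CPM in WT and 32.6, 92.8, 9.698 and 21.5 CPM in HdhQ150 hearts (-3.17 ± 0.81), and its value was -1.59 against WT mouse 28 alone. The WT hearts themselves spanned a wide range. Tnni1, the foetal and slow troponin I, was low and higher in HdhQ150, at 0.808, 0.658 and 0.556 against 1.48, 1.73, 1.19 and 1.87 CPM (1.21 ± 0.26).

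The genes that the study also assayed in other ways overlapped between genotypes in these libraries. By qPCR the study reported Nppa and Nppb higher in symptomatic HdhQ150 hearts, Fhl1 and Fhl2 higher, and Myh6 and Myh7 lower. It reported S100a4 and Vgll4 higher already at 8 months and Bdnf lower at end-stage disease. Its qPCR levels were relative to Actb, Cyc1 and Gapdh, whereas the values here are CPM. Connexin 43 was assayed as protein, with no change in level reported. The natriuretic peptide Nppa was at 2109, 2350.1 and 1665 CPM in WT and 1874, 2735, 1849.7 and 1963 CPM in HdhQ150 hearts (0.04 ± 0.21, adjusted p = 0.926), and Nppb at 171, 118 and 178 against 142, 288, 83.3 and 149 CPM (0.09 ± 0.38, adjusted p = 0.916). The LIM protein Fhl1 was at 153, 522 and 170.0 against 153, 498, 97.4 and 154 CPM (-0.32 ± 0.64, adjusted p = 0.796), and its relative Fhl2 at 1438, 1079 and 1340.3 against 1084, 1042, 613 and 1086 CPM (-0.43 ± 0.23, adjusted p = 0.352). Fhl1 was high in 1 heart of each genotype, mice 27 and 30. The myosin heavy chains of the adult and foetal type, Myh6 and Myh7, had log2 fold changes of -0.10 ± 0.29 (adjusted p = 0.857) and 0.45 ± 0.43 (adjusted p = 0.573), the second with mouse 30 at 4406 CPM and all other hearts at 1286 to 2199 CPM. The calcium-binding protein S100a4 was at 6.76, 4.37 and 5.32 against 7.68, 2.34, 12.2 and 8.52 CPM (0.49 ± 0.47, adjusted p = 0.577), the TEAD cofactor Vgll4 at 9.92, 10.5 and 14.6 against 13.2, 10.04, 19.05 and 13.4 CPM (0.25 ± 0.24, adjusted p = 0.559), and the neurotrophin Bdnf at 4.39, 5.02 and 4.69 against 5.099, 8.19, 3.904 and 4.02 CPM (0.17 ± 0.28, adjusted p = 0.744). Gja1, connexin 43, was at 374, 268 and 369 against 375, 303, 185 and 339 CPM (-0.17 ± 0.25, adjusted p = 0.713). Th, tyrosine hydroxylase of sympathetic nerves, was at 0.053 to 0.237 CPM in all hearts and too low to test. In none of these was the p under 0.05, which does not show that their levels are equal.

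Calcium handling and the ion channels of the action potential each had a median of -0.05, with 10 of 24 and 12 of 25 tested genes higher. Without mouse 31 both directions turned, to 0.04 with 13 of 24 and 0.05 with 15 of 25 higher, and in the libraries without Y-linked transcripts the medians were -0.08 and -0.18. Camk2b, a calcium-dependent kinase, was at 18.8, 18.96 and 18.7 CPM in WT and 11.5, 9.94, 14.4 and 9.91 CPM in HdhQ150 hearts (-0.72 ± 0.15), and Atp2b2, a calcium pump of the plasma membrane, at 5.44, 6.63 and 5.696 against 3.11, 2.34, 2.696 and 2.92 CPM (-1.098 ± 0.17). Pde1c, a calmodulin-dependent phosphodiesterase, was higher, at 27.2, 19.2 and 32.7 against 43.6, 45.8, 35.7 and 43.6 CPM (0.67 ± 0.18), whereas Pln, phospholamban, which restrains the calcium pump of the sarcoplasmic reticulum, was at 4134, 3414 and 4379 against 4539.6, 5301, 3168 and 4388 CPM (0.13 ± 0.22, adjusted p = 0.761). Leaving out mouse 31 made the difference in Camk2b and Pde1c larger.

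Of the 3 sodium channel genes tested, all were lower with all 7 libraries and 2 without mouse 31. Scn4b, an auxiliary subunit, was at 93.3, 108 and 109 CPM in WT and 81.3, 56.1, 34.8 and 66.1 CPM in HdhQ150 hearts (-0.80 ± 0.25). Kcnj14, an inward rectifier, was at 39.9, 36.1 and 33.9 against 23.8, 16.7, 9.73 and 21.9 CPM (-1.03 ± 0.27), and Hcn2, a pacemaker channel, at 16.9, 15.3 and 11.7 against 8.87, 10.3, 3.904 and 7.31 CPM (-0.95 ± 0.31). The groups did not overlap for these 3 genes, mouse 31 was the lowest heart for each, and without it the values were -0.61, -0.82 and -0.73. Among 12 tested genes of autonomic input, 7 were higher (median 0.09), but without mouse 31 it was 5 of 11 with a median of -0.0011, and in the libraries without Y-linked transcripts 5 of 12 (-0.07). Chrm2, the muscarinic receptor through which the vagus slows the heart, was at 48.4, 51.9 and 59.1 against 64.6, 76.1, 56.1 and 66.9 CPM (0.31 ± 0.13), with no overlap without mouse 31.

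Targets of the hypoxia response were lower in 9 of 14 tested cases (median -0.31, -0.26 without mouse 31), with 4 not overlapping. Egln3, an oxygen-sensing prolyl hydroxylase that hypoxia induces, was at 68.5, 83.99 and 101 CPM in WT and 44.5, 36.7, 28.5 and 42.04 CPM in HdhQ150 hearts (-1.16 ± 0.18). Apln, the peptide apelin, was at 14.7, 14.3 and 12.2 against 8.34, 4.25, 2.78 and 7.695 CPM (-1.26 ± 0.35), and Higd1a at 110.2, 106 and 94.3 against 73.4, 71.4, 49.03 and 75.8 CPM (-0.62 ± 0.16). Egln3 was lower against WT mouse 28 alone as well, by a log2 fold change of -1.43.

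Extracellular matrix genes were lower in 27 of 37 tested cases (median -0.18, -0.08 without mouse 31). Serpinh1, the collagen chaperone, was at 214, 214 and 182 CPM in WT and 141, 101, 80.4 and 149.8 CPM in HdhQ150 hearts (-0.79 ± 0.22), and P4ha1, a collagen prolyl hydroxylase and hypoxia target, at 50.1, 54.3 and 41.8 against 32.8, 41.9, 27.6 and 32.4 CPM (-0.54 ± 0.16) with mouse 30 level with the lowest WT heart. Sparc, the member of highest FPKM, was at 355, 299 and 290.1 against 283, 183, 141 and 268 CPM (-0.53 ± 0.24, adjusted p = 0.306). In the opposite direction, Ccn2, connective tissue growth factor, was at 63.7, 65.7 and 112 against 130.3, 226, 143 and 141 CPM (0.99 ± 0.27), and the value against WT mouse 28 alone was 0.51.

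Apoptosis genes were higher in 15 of 18 tested cases (median 0.33), but in 10 of 18 with a median of 0.07 without mouse 31. Bcl2l11, the death activator BIM, was at 9.86, 12.1 and 12.8 CPM in WT and 19.8, 21.8, 31.9 and 13.9 CPM in HdhQ150 hearts (0.91 ± 0.27), and its log2 fold change was 0.67 without that mouse. Heat shock genes and chaperones were lower in 10 of 10 (median -0.56, -0.39 without mouse 31), yet the median was close to 0 against WT mouse 28 alone, and Hspa1b was at 5.09, 6.52 and 4.11 against 3.24, 2.55, 2.91 and 4.498 CPM (-0.67 ± 0.25) with overlap. Clock genes had a median of 0.09 over 16 (0.18 without mouse 31), with Per1 at 19.6, 40.8 and 39.1 against 50.7, 130.1, 42.98 and 58.8 CPM (1.09 ± 0.43) and mouse 30 highest. Activity-regulated genes had 0.15 over 10, which turned to -0.03 without mouse 31 and -0.25 in the libraries without Y-linked transcripts, with Arc, an immediate early gene, at 8.46, 7.94 and 5.59 against 3.58, 2.88, 1.82 and 4.16 CPM (-1.24 ± 0.29).

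Htt itself, the gene that carries the expansion, was at 17.4, 18.02 and 20.6 CPM in WT and 10.97, 17.7, 16.00 and 11.97 CPM in HdhQ150 hearts (-0.40 ± 0.19, adjusted p = 0.312), with mouse 30 inside the WT range. At 8 months it was 26.3 ± 4.45 CPM in WT and 15.1 ± 1.64 in HdhQ150 (-0.80, adjusted p = 0.418). Its neighbour Sorcs2, a sorting receptor with 12 tested genes between it and Htt, was higher at both ages: 5.63, 5.52 and 9.22 CPM in WT against 15.6, 15.7, 11.3 and 17.3 CPM in HdhQ150 hearts at 22 months (1.14 ± 0.23), and 7.19 ± 1.96 CPM in WT and 13.3 ± 1.15 in HdhQ150 at 8 months (0.89, adjusted p = 0.481). The 22-month value against WT mouse 28 alone was 0.69. Of the 40 tested genes nearest to Htt, 20 on each side, 4 did not overlap upwards and 8 downwards. Over all tested genes the shares were 8.81% upwards and 10.1% downwards. The 13 tested genes of the list of Htt and its neighbours had a median of 0.00 (-0.04 without mouse 31).

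The 8-month groups, which share no heart with the 22-month groups, gave 0 genes called by edgeR of 15173 tested (0%), with 593 higher (3.91%) and 531 lower (3.5%) at an unadjusted p under 0.05. All genes were split 52.1% higher and 47.9% lower. For the interferon list the median was 0.06 (34 of 60 higher), for oxidative phosphorylation -0.07 (11 of 78 higher) and for antigen presentation 0.86 (22 of 22 higher). The genotype by age term, which tests whether the difference is the same at both ages, passed for 0 of 16137 genes in edgeR (0%) and for 2 in DESeq2, and at an unadjusted p under 0.05 it was positive for 557 (3.45%) and negative for 704 (4.36%), where the estimates of all genes were 53.4% positive and 46.6% negative. By the same threshold it was negative for 32 and positive for 0 of the 78 subunits of oxidative phosphorylation, and positive for 4 and negative for 0 of the 60 interferon genes. Mouse 31 was part of this fit. At 8 months WT mice 17 and 19 and HdhQ150 mice 23 and 24 carried Y-linked transcripts, and the other hearts did not. The balance of sex between genotypes thus differed between the ages, and its part in this term cannot be told apart.

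For single genes the ages compare as follows. Irf7 was 11.2 ± 8.16 CPM in WT and 11.7 ± 2.57 in HdhQ150 at 8 months (0.07, interaction adjusted p = 0.6). The WT level of Irf7 at 8 months was spread more widely than either genotype at 22 months. Acta1 was lower at 8 months too (-1.99, adjusted p = 0.418), and Hcn2 had -0.60 (adjusted p = 0.418). Egln3 (0.07 at 8 months, interaction adjusted p = 0.6), Ppp1r3c (-0.0021, interaction adjusted p = 0.6), mt-Ti (-0.18, interaction adjusted p = 0.6) and Ndufs5 (-0.10, interaction adjusted p = 0.6) had values near 0 at the younger age. B2m was 184 ± 11.7 CPM in WT and 366 ± 248 in HdhQ150 at 8 months, a mean difference of 0.997 with a wide spread among the 3 HdhQ150 hearts. None of these interactions passed the threshold.

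Several of the genes named have near-identical copies or overlap others, so that the split of reads between them is uncertain. These are the class I and class II genes, Gvin1, Irgm1, the Ifit and Oas genes, C4b, Hspa1b, Hba-a1, the immunoglobulin genes and the mitochondrial tRNAs.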

How the data were processed

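Whole-heart RNA was sequenced by the study as paired-end Illumina reads with 4 libraries to a lane. Alignment to mouse genome B37 was by OSA within Omicsoft. The authors deposited a table of expected counts, without normalization, and a table of FPKM values, scaled by them for gene length and depth, for 37620 gene identifiers. The plan assumed whole counts. Of the non-zero values 70.9% were whole within 1e-09, and the values were rounded for the count tests. Identifiers without a symbol (4723) held 0.759% of the counts. Whether counting used strand is not given in the sources used here.

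Columns were assigned to groups by the age and genotype in their headings, and 0 columns were left over. The mouse numbers of the headings are in no sample label, and nothing says how the animals were related, so p-values measure the spread between these libraries. No pair of libraries was alike within sampling noise (chi-square per degree of freedom 17.8 to 248, over genes with at least 20 summed counts). At 39674011 to 45603891 counts a library, counting error is small for abundant genes. For genes of a few CPM it adds to the spread between hearts.

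The main test was edgeR 4.0.16 (quasi-likelihood, TMM, filterByExpr) in R 4.3.3 on the 2 groups at 22 months, with calls at 10% FDR (Benjamini-Hochberg, all tested genes) and a fold of 1.3 or more, as the study set them for DESeq. The fits were tested on simulated data. The same test was run without mouse 31, at 8 months and on the genotype by age term. CPM carry TMM factors, and list levels are the mean log2 CPM with a prior count of 2. Alternatives were DESeq2 1.42.0, limma 3.58.1 on log2(FPKM + 1) and log2(FPKM + 0.1) where FPKM reached 0.5, other scalings, filters, thresholds and covariates, and each library left out. Summaries used Python 3.11.15 with numpy 2.4.6, pandas 2.3.3 and matplotlib 3.10.9.

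The comparison and the 36 gene lists (668 of 677 entries matched) were chosen with earlier results of these data known, so lists are described by counts and medians and not tested. Named genes are the 12 higher and 12 lower of smallest p among annotated genes with at least 1 CPM in a group, a fold of at least 1.3 and no overlap, up to 4 of smallest p and the highest FPKM of each list, the genes the study assayed otherwise, Htt and Sorcs2, and prominent cell markers. Some genes that meet these rules are not reported here. Ifih1, Stat2, Irf9, Irgm1, Oas3, Zbp1, Tlr3, Isg15, Tap1, Psmb10, H2-Aa, Cd74, Ndufa5 and Atp5k were picked after their values were seen, as were 3 gene families in the closing section. Promoter windows are from RefSeq (GRCm38.p6), and exon lengths and gene order from GENCODE release M21, neither of which is the authors' build.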

Additional observations from a re-analysis of the deposited data

Results flagged for a closer look

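Among the 4 HdhQ150 hearts, 17 of the 112 genes named had 1 library far from the other 3, by Dixon's test for 4 values. Chance gives about 1 in 20 for genes chosen without regard to single libraries, which these were not. Some cell markers were named because they reach the highest CPM in 1 library, and mouse 31 was set apart beforehand. The count therefore describes the named genes and is not a test of any heart. The outlying library was mouse 31 in 12 of them and mouse 30 in 5. Mouse 31 was high for Cd8a (105 CPM), Ccl5 (177 CPM), Cd79a (69.1 CPM), Ighm (409 CPM), Cxcl13 (61.9 CPM), S100a9 (54.5 CPM), Ccr2 (34.1 CPM), C3 (934 CPM) and Oas3 (7.93 CPM). It was low for Ndufc1 (88.0 CPM), Higd1a (49.0 CPM) and Fhl2 (613 CPM). Mouse 30 was high for Nppa (2735 CPM), Fhl1 (498 CPM), Ccn2 (226 CPM) and Vwf (111 CPM) and low for Ifitm3 (60.5 CPM). No named gene passed the adjusted threshold for a difference between the ages.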

How the results depend on the processing

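The number of genes called, all 7 libraries at 22 months, was 0 in edgeR. It was 619 with DESeq2 (287 higher) and 1316 with all 8 groups in 1 fit (699 higher). It was 25 with the L code of the column headings as a block. No label says what this code stands for, and only L6 (mice 26 and 31) and L7 (mice 28 and 29) held both genotypes. When single libraries were left out the count was 0 to 6, with 6 without WT mouse 28. For genes called, without mouse 31, the count of 0 became 682 with DESeq2 and 90 with all groups in 1 fit. It was 29 with no filter on low counts and 2 with the sex of the headings as a covariate. With a further library left out it was 0 to 16, with 6 without mouse 28 and 16 without mouse 30. The L code could not be fitted. The genotype by age count of 0 became 2 with DESeq2. The other alternatives gave 0, among them Y-linked transcripts as a covariate (226 genes at an unadjusted p under 0.05) and the libraries without them (143). The cause of these differences was not tested. No paired analysis was possible because the mouse numbers in the headings are in no sample label and pair no libraries. Of 1991 values of the 112 genes under alternatives, 1821 kept direction and side of the threshold, 131 passed it only under the alternative and 39 turned. With the limma fit on log2(FPKM + 0.1) and log2(FPKM + 1), Tlr3 was 0.18 and 0.13, Psmb10 0.21 and 0.21, Myh6 0.058 in both and Gja1 0.0063 and 0.0064. With Y-linked transcripts as a covariate and in the libraries without them, Psmb10 was 0.38 and 0.37, Pln -0.0077 and -0.019, Nppb -0.10 and -0.11, Fhl1 0.41 and 0.40 and Vgll4 -0.066 and -0.081. With the L code as a block, Psmb10 was 0.025, Pln -0.17, Nppa -0.012, Nppb -0.69 and Bdnf -0.027. With the headings' sex Nppa was -0.0037 and Nppb -0.047. With single libraries left out the values ran from -0.098 to 0.027 for Tlr3, -0.18 to 0.081 for Psmb10, -0.11 to 0.15 for Nppa, -0.32 to 0.30 for Nppb, -1.07 to 0.48 for Fhl1, -0.27 to 0.052 for Myh6, -0.038 to 0.66 for Myh7, -0.12 to 0.29 for Bdnf and -0.31 to 0.0026 for Gja1, so that these genes have no stable direction. List medians under alternatives were compared for 12 lists, and in 6 of the 180 medians the sign differed from the main fit. Of the 180, 173 moved by less than the spread between hearts. Those that moved more, chosen after seeing the data in the first 2 cases, were the interferon response at 0.51 and antigen presentation at 0.35 without mice 31 and 32, fatty acid oxidation at -0.059, calcium handling at 0.17 and hypoxia at -0.11 on log2(FPKM + 1), and heat shock at 0.010 with Y-linked transcripts as a covariate and -0.00093 in the libraries without them.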

Other observations

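Gene families outside the lists, chosen after their values were seen, showed the following. Mitochondrial ribosomal proteins, which translate the mRNAs of the mitochondrial genome, were lower in 78 of 78 tested genes with a median log2 fold change of -0.40, and 67 did not overlap between genotypes, against 10.1% of all genes downwards. Without mouse 31 the median was -0.34, in the libraries without Y-linked transcripts -0.25, and at 8 months -0.08 with 13 of 78 higher. Measured against genes of the same bin of exon length it was -0.37. Cytosolic ribosomal proteins, in contrast, were higher in 68 of 83 tested genes by a median of 0.12, but in 7 of 83 by a median of -0.11 without mouse 31, so that their direction rested on that heart. Subunits of the proteasome were lower in 37 of 38 tested genes with a median of -0.32, and 12 did not overlap downwards. Their median was -0.25 without mouse 31, and -0.13 with 7 of 38 higher in the libraries without Y-linked transcripts. Immunoglobulin gene segments were higher in 15 of 15 tested cases and, without mouse 31, in 8 of the 10 that could then be tested, and 26 of the 106 segments listed were at 0 in all libraries.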
